A study of Mus musculus with 7 samples.

Results

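The genes followed here are 36 genes of fatty acid oxidation in the mouse liver, most of them known targets of the nuclear receptor PPAR alpha. They were taken as a fixed list, and each was matched by its current symbol or an older one to the probes of an Illumina mouse expression array (Plin2 and Eci2 are listed on older arrays as Adfp and Peci). Of the 36 genes, 35 had at least 1 named probe, 67 probes in all, out of 19057 genes named on the array. For each gene the probe with the highest mean intensity over the 7 arrays was used. A total of 30 genes were tested, out of 12749 tested on the whole array, where testing required that a probe exceeded the median of its array on 3 or more arrays. Of these 30 genes, 28 were above background on all 7 arrays.

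Liver total RNA was taken at postnatal day 28 from 7 male mice of the inbred laboratory strain C57BL/6J. Titles assign 4 animals to the control group and 3 to the ethanol-exposed group, in which the dam had free access to 10% (v/v) ethanol from fertilization to gestational day 8.5. The treatment text itself is repeated on the control samples, so only the titles and source names separate the groups. Animals are called replicates without mention of litters, so p-values measure only the spread between these 7 samples, which may be technical. The study describes a mouse model of fetal alcohol syndrome in which growth after birth is restricted, and the comparison asks which liver transcripts differ weeks after the exposure ended.

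Fatty acids enter the liver cell, are bound to carrier proteins and activated to acyl-CoA, and are then burned in mitochondria after transport as carnitine esters, or shortened in peroxisomes when their chains are very long. PPAR alpha, which pairs with the retinoid X receptor, is activated by fatty acids and switches on genes at most of these steps during fasting and, in rodents, on treatment with fibrate drugs. The pathway is active in suckling mice, whose milk diet is rich in fat.

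Array quality touched these genes as follows. Markers of hepatocytes were above background on all 7 arrays in 11 of 12 genes, with a median log2 fold change of 0.04 (ethanol minus control). None of 5 adipocyte markers with a probe, among them Adipoq and Lep, was above background on any array, and 4 of 5 skeletal muscle markers were not. On each array 13951 to 15068 probes exceeded the background limit, and the log2 levels of any pair of arrays correlated across probes, which are not independent replicates, at 0.981 to 0.995.

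No gene of fatty acid oxidation passed the test. In limma, with p-values adjusted over all 23829 tested probes, 0 of 30 genes passed an adjusted p of 0.05, against 4 of 12749 genes, or 0.0314%, on the whole array. Without adjustment 3 of the 30 genes (10%) had a p under 0.05, against 9.12% of all tested genes, which is close to the background. Those 3 genes were Ehhadh, Hadhb and Ppara, each lower in ethanol livers. In the same 3 genes the ethanol values all lay below the control values (10%, against 4.8% of all tested genes), and in 0 genes did they all lie above (against 4.16%). Of the 30 genes, 10 had a positive and 20 a negative log2 fold change, where 49.6% of all tested genes were positive. The median log2 fold change was -0.07 for the 30 genes, and 0.00 to the second decimal for all tested genes. The median was -0.13 without control 1 and 0.00 without control 2. With untested genes included it was -0.05 over the 35 genes with a probe. RNA came from whole liver, so fewer cells of a type and less RNA per cell cannot be told apart.

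**Figure D1:**
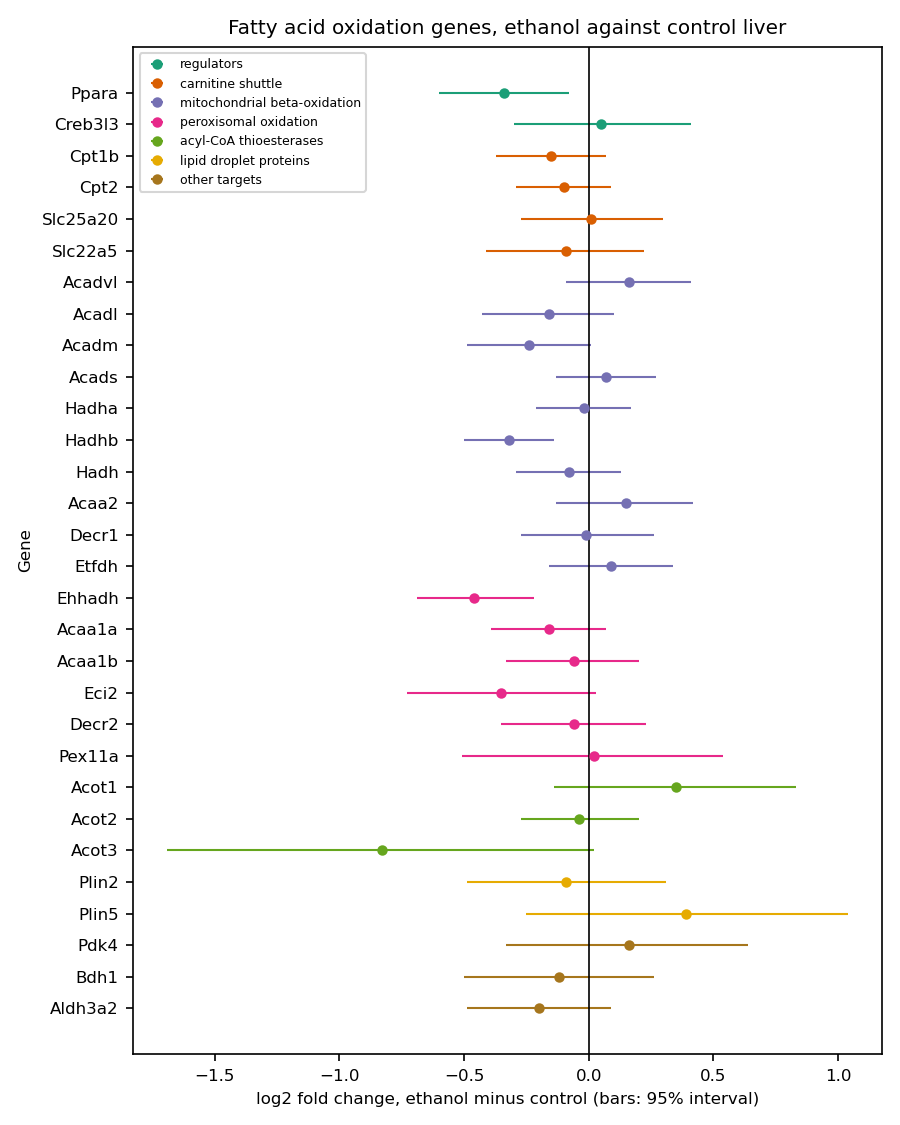
Log2 fold change (ethanol minus control, horizontal axis) of the 30 tested genes of fatty acid oxidation, coloured by role. Points are limma estimates from 4 control and 3 ethanol animals and bars are unadjusted 95% intervals. Ehhadh, Hadhb and Ppara are the genes whose interval lies wholly below 0, and the widest interval is that of Acot3.

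Unadjusted 95% intervals show how far these data bound a difference. In 20 of the 30 genes the interval lay within 0.5 log2 units on either side of 0. The offset of 50 units shrinks log2 differences of dim probes, among them those of Cpt1b, Acot2, Hadha and Hadh. For these genes the interval bounds the difference on the offset scale only. Cpt1b, for example, had a log2 fold change of -0.15 here and -0.57 without the normexp step. The other 10 were Ppara, Hadhb, Ehhadh, Eci2, Pex11a, Acot1, Acot3, Plin5, Pdk4 and Bdh1. Of these, the intervals of Hadhb (-0.50 to -0.14) and Bdh1 (-0.50 to 0.26) ended at the limit to the second decimal. For the rest of the 10, a larger difference is not bounded by these arrays. The absolute log2 fold change was under 0.2 in 21 genes.

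The regulators are described first. Ppara, the gene of the receptor itself, read 100.2, 146, 93.9 and 81.0 intensity units in controls 1 to 4 and 72.3, 67.8 and 59.5 in ethanol animals 1 to 3. All 3 ethanol values were below the lowest control, and control 2 stood above the other controls. The mean was 105 ± 28.2 (SD, n = 4) against 66.6 ± 6.50 (SD, n = 3), which is 63.2% of control. Its log2 fold change was -0.34 ± 0.12 (SE), and limma's adjusted p of 0.472 did not pass (0.434 to 0.779 over the alternatives). Because the scale carries an offset of 50 units, a log2 value understates the difference of a probe as dim as this one. Creb3l3, a membrane-bound transcription factor of the liver that acts with PPAR alpha in fasting, read 775, 1134, 1307 and 1256 in controls and 1349, 1029 and 1079 in ethanol livers. The groups overlapped, with a log2 fold change of 0.05 and a 95% interval of -0.30 to 0.41.

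The promoter of Ppara is shown because the gene is the regulator of the set and lay among the lowest. It is the RefSeq window of 250 bases before to 50 bases after the start, chr15:85735526-85735825 on the plus strand of GRCm38.p6.
Ppara: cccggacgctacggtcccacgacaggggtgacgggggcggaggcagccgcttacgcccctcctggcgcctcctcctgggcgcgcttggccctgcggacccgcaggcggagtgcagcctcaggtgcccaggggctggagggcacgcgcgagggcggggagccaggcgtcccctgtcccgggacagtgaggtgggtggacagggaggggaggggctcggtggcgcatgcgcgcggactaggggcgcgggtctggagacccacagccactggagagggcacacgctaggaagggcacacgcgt

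Peroxisomal oxidation held the gene with the smallest p. Ehhadh, the bifunctional enzyme of hydration and dehydrogenation in peroxisomes and a classic target of PPAR alpha in rodents, read 795, 705, 777 and 784 units in controls 1 to 4. Ethanol animals 1 to 3 had 451, 548 and 615 units. The groups did not overlap, and the controls lay close together while the ethanol animals were spread over a wider range. The mean was 765 ± 40.7 (SD, n = 4) against 538 ± 82.6 (SD, n = 3), or 70.3% of control, with a log2 fold change of -0.46 ± 0.11 (SE). The adjusted p in limma was 0.354 (unadjusted 0.00156), and it ran from 0.298 to 0.659 over the 15 alternatives, so the difference did not pass in any of them. Runs without 1 animal gave log2 fold changes from -0.56 to -0.35. Its promoter window, chr16:21787785-21788084 on the minus strand of GRCm38.p6, is given for the member with the largest moderated statistic and is read along the gene.
Ehhadh: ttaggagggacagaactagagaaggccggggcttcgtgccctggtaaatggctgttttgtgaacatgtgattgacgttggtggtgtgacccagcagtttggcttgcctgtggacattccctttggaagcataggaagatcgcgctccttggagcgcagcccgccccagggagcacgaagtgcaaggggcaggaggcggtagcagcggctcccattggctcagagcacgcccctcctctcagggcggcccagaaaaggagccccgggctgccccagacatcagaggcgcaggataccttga

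The other peroxisomal genes did not stand apart from the control spread. Eci2, an enoyl-CoA isomerase of unsaturated chains, read 1231, 1917, 1856 and 2134 in controls and 1639, 1386 and 1123 in ethanol animals. Only ethanol 3 was below every control, since control 1 was itself low. The log2 fold change was -0.35 ± 0.17 (SE), with -0.50 without control 1 and -0.22 without ethanol 3, and the adjusted p was 0.601. The thiolases Acaa1a and Acaa1b, near-identical copies whose probes may share signal, had log2 fold changes of -0.16 and -0.06. Decr2, the peroxisomal dienoyl-CoA reductase, had -0.06, and its second probe 0.07. Pex11a, which drives division of peroxisomes and is induced by PPAR alpha, read 1523, 2178, 1624 and 2117 in controls against 3046, 1583 and 1338 in ethanol animals. Ethanol 1 was the highest of the 7 and ethanol 3 the lowest, and the log2 fold change of 0.02 became -0.34 without ethanol 1 and 0.23 without ethanol 3. The 3 dimmer probes of Pex11a gave 0.09, 0.09 and 0.12.

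In the mitochondrial spiral most enzymes differed little. Hadhb, the beta subunit of the trifunctional protein, which carries the final thiolase step for long chains, read 3676, 4289, 4029 and 4326 units in controls 1 to 4 and 3225, 3498 and 3109 in ethanol animals 1 to 3. The ethanol values lay below all controls, by a small margin between ethanol 2 and control 1. Means were 4080 ± 300.2 (SD, n = 4) and 3278 ± 200 (SD, n = 3), which is 80.3% of control, and the log2 fold change was -0.32 ± 0.08 (SE) with an adjusted p of 0.392 in limma (0.366 to 0.779 over the alternatives). Hadha, the alpha subunit, was read by a dim probe, from 33.1 to 45.8 units over all 7 animals against background limits of 21.3 to 26.9. Its groups overlapped (log2 fold change -0.02, 95% interval -0.21 to 0.17), and at that brightness a difference of the size seen for Hadhb would be compressed by the offset.

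Hadha and Hadhb are transcribed in opposite directions from start sites with 272 bases between them, so their promoter windows overlap. The shared 228 bases are shown because they lie between the start sites of both subunit genes, chr5:30155003-30155230 of GRCm38.p6, written on the plus strand, along Hadhb.
Hadha and Hadhb: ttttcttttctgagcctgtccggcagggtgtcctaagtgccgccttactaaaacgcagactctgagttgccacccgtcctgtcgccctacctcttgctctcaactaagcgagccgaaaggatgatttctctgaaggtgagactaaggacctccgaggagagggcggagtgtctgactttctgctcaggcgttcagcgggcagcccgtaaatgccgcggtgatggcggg

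The acyl-CoA dehydrogenases take the first step of each round and are ordered by chain length. Acadvl (very long chains) had a log2 fold change of 0.16, which was 0.03 without ethanol 3, and its second probe gave -0.02. Acadl (long chains) had -0.16 and its second probe above background -0.29. For Acadm (medium chains), readings were 9541, 11132, 10968 and 11163 in controls and 10315, 10292 and 7348 in ethanol animals. In intensity, ethanol 1 and 2 lay inside the control range and ethanol 3 below it. On the normalized log2 scale, set against the control mean, ethanol animals 1 to 3 stood at -0.061, -0.133 and -0.522. Controls ran from -0.061 to 0.055 on that scale, so ethanol 2 was also below every control. The log2 fold change of -0.24 ± 0.11 (SE) was -0.10 without ethanol 3. Acads (short chains) had 0.07, with a 95% interval of -0.13 to 0.27, and its second probe gave -0.02.

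Later steps and electron transfer gave small values of both signs. Hadh, the dehydrogenase for short chains, had -0.08, while a second probe that was above background on 2 arrays gave -0.22 with an unadjusted p of 0.0405. Acaa2, the mitochondrial thiolase, had 0.15, and its other 3 probes 0.12, 0.09 and -0.07. Decr1, the mitochondrial dienoyl-CoA reductase, had -0.01 with a 95% interval of -0.27 to 0.26. Etfdh, which passes electrons from these dehydrogenases to ubiquinone, had 0.09, with -0.06 to 0.05 at its dimmer probes. Over the 10 mitochondrial genes the median log2 fold change was -0.01, with 4 higher and 6 lower.

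Carnitine transport was measured without its rate-limiting enzyme. Cpt1a, the liver form of carnitine palmitoyltransferase 1, was not above background on any array at either of its 2 probes and was not tested. Cpt1b, the muscle form, was the shuttle gene with the largest moderated statistic and read 31.0, 36.9, 36.9 and 23.5 units in controls and 17.6, 34.5 and 15.2 in ethanol animals. It was above background in 3 of 4 controls and 1 of 3 ethanol animals, ethanol 2 lay within the control range, and its log2 fold change was -0.15 ± 0.10 (SE). Cpt2, which rebuilds acyl-CoA inside the mitochondrion, read 4906 to 5742 in controls and 4667 to 5598 in ethanol animals, a log2 fold change of -0.10 with a 95% interval of -0.29 to 0.09. The dimmer probes of Cpt2 gave 0.01 and 0.04. Slc25a20, the carnitine-acylcarnitine carrier of the inner membrane, had 0.01, and 0.15 at a dimmer probe. Slc22a5, the carnitine importer of the cell membrane, had -0.09, with 0.13 and -0.04 at its dimmer probes. At the brightest probe of each, all tested shuttle genes overlapped between groups.

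Acyl-CoA thioesterases, which release free fatty acids from acyl-CoA, held the widest range. Acot3, a peroxisomal form, read 333, 688, 319 and 414 units in controls 1 to 4 and 355, 342 and 49.0 in ethanol animals 1 to 3. Ethanol 1 and 2 lay inside the control range, and ethanol 3 was far below every other animal. The log2 fold change of -0.83 ± 0.39 (SE) had a 95% interval of -1.69 to 0.02 and an adjusted p of 0.577, and it was -0.24 without ethanol 3. Acot1, the cytosolic form, read 1391, 3160, 2338 and 1606 in controls and 2812, 2904 and 2122 in ethanol animals, so that the controls spanned the whole ethanol range. Its log2 fold change was 0.35 ± 0.22 (SE), and 0.46 ± 0.17 (SE) with an unadjusted p of 0.0204 at a dimmer probe. Acot2, the mitochondrial form, was above background on 3 arrays and had -0.04. Acot1 and Acot2 are near-identical in sequence, so their probes may share signal.

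**Figure D2:**
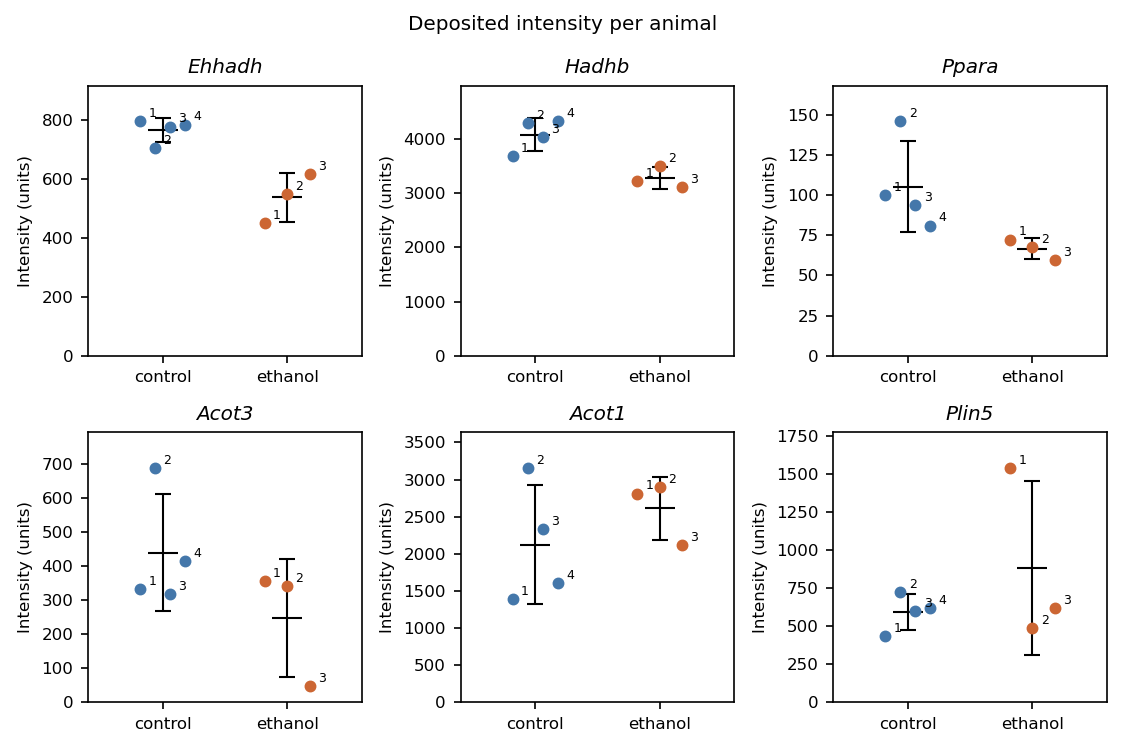
Deposited intensity (vertical axes from 0, in array units) of 6 genes in each animal, numbered within its group, with the group mean and SD as bars (n = 4 control, n = 3 ethanol). Ethanol animals lie below all controls for Ehhadh, Hadhb and Ppara, while single animals set the group difference of Acot3 (ethanol 3 at 49.0) and Plin5 (ethanol 1 at 1541), and the groups overlap for Acot1.

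Among proteins of the lipid droplet, Plin5 had a large spread. Plin5, a perilipin that ties droplets to mitochondria, read 435, 722, 600.4 and 621 in controls and 1541, 488 and 621 in ethanol animals. Ethanol 1 was higher than any other animal, the other 2 ethanol animals lay within the controls, and the log2 fold change of 0.39 ± 0.29 (SE) was -0.06 without ethanol 1. Plin2, the main perilipin of liver droplets, had -0.09 with a 95% interval of -0.49 to 0.31. Cidec, a droplet fusion protein, was not above background on any array.

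Uptake and binding could not be read on these arrays. The probe of Cd36, the fatty acid translocase, and that of Fabp1, the liver fatty acid binding protein, were at or below 0 in all 7 animals. The probe of Vnn1, the pantetheinase that marks PPAR alpha activity in liver, was not above background either. Since Fabp1 is abundant in hepatocytes as a rule, a probe below background here says nothing of the level of its transcript. Ucp2, the uncoupling protein, had no named probe.

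Among the other targets, Aldh3a2, the fatty aldehyde dehydrogenase, had the largest moderated statistic and read 3543, 5716, 4851 and 4995 in controls and 4401, 4347 and 3728 in ethanol animals. All ethanol values lay within the control range, because control 1 was lower still, and the log2 fold change was -0.20 ± 0.13 (SE) and -0.32 without control 1. Bdh1, which makes the ketone body hydroxybutyrate, had -0.12 (second probe 0.15). Pdk4, the kinase that shuts pyruvate out of oxidation in fasting, read 123, 130, 65.4 and 48.3 in controls and 75.8, 180 and 77.6 in ethanol animals. Ethanol 2 was the highest of the 7, and the log2 fold change of 0.16 was -0.09 without it.

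Differences between control animals were larger in these genes than across the array. The median SD between controls was 0.21 log2 units for the 30 genes and 0.12 for all tested genes, while the SDs between ethanol animals were 0.15 and 0.13. The sets were not matched for brightness, and the offset flattens the spread of dim genes. Above background on all 7 arrays were 28 of the 30 genes, against 7648 of 12749 tested genes. Control 1 had the lowest control value in 19 of the 30 genes (63.3%, against 26.7% of all tested genes) and control 2 the highest in 17 (56.7%, against 22.7%). Among ethanol animals, number 3 was the lowest in 18 genes (60%, against 31.1%). Set against the control mean, the mean log2 level of the 30 genes stood at -0.18, 0.16, 0.00 and 0.02 in controls 1 to 4 and at 0.04, -0.05 and -0.23 in ethanol animals 1 to 3. Control 1 and ethanol 3 were thus the low animals and control 2 the high one, and the groups overlapped. The genes are not independent readings, since they share regulators, and no test was run on this mean.

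**Figure D3:**
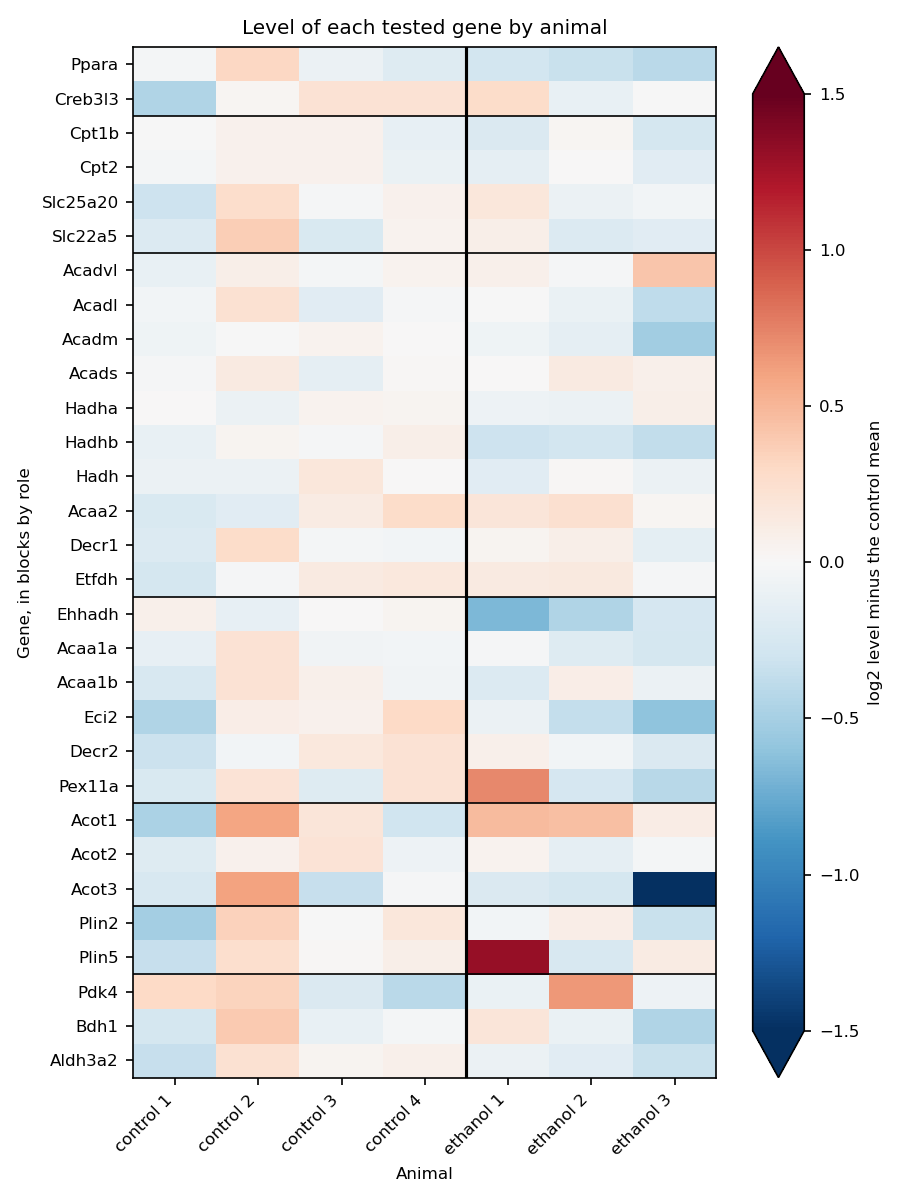
Level of the 30 tested genes (rows, in blocks by role) in each of 7 animals (columns), as the log2 level minus the control mean of that gene, with the colour scale ending at 1.5 either side of 0. Control 1 and ethanol 3 are mostly blue (lower) and control 2 mostly red (higher), and the row of Acot3 in ethanol 3 passes the end of the scale.

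A list of 59 further genes of the pathway, sharing no gene with the 36, gave a similar median. Of 49 tested, 0 passed in limma, 19 were higher and 30 lower, and the median log2 fold change was -0.07. An unadjusted p under 0.05 was found in 15 of them (30.6%, against 9.12% of all tested genes), 4 higher and 11 lower. Without overlap between groups there were 3 higher (6.12%) and 6 lower (12.2%). The list was written with earlier results of these data known, so the share is a description.

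Lower values in that list came from several steps. Acot12, a cytosolic acetyl-CoA thioesterase of liver, read 553, 658, 579 and 580.3 in controls and 510.5, 403 and 355 in ethanol animals, which did not overlap (log2 fold change -0.43 ± 0.11, adjusted p 0.392). Mlycd, which removes the malonyl-CoA that blocks carnitine transport, had -0.29 ± 0.09, and Acot13, another thioesterase, -0.36 ± 0.12. Abcd2, a peroxisomal importer of very long chains, had -0.85 ± 0.27, with controls from 127 to 389 and ethanol animals from 61.5 to 111. Fgf21, the fasting hormone under PPAR alpha, read 603, 359, 312 and 207 in controls and 157, 223 and 126 in ethanol animals, with overlap between ethanol 2 and control 4. Its log2 fold change was -0.83 ± 0.25, beside -0.55 ± 0.19 for Ppargc1a, the coactivator, and -1.05 ± 0.40 for G0s2, an inhibitor of droplet lipolysis. Amacr, a racemase of branched chains, had -0.28 but was not above background on any array. Higher values were those of Acox3, a peroxisomal oxidase of branched chains (0.31 ± 0.11), and Scp2, a sterol carrier and thiolase (0.23 ± 0.08), both without overlap. These differences carry SEs and had adjusted p-values up to 0.510 in limma.

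Genes that follow time of day and feeding also differed between animals. The mean level of 11 clock genes was -0.14, 0.04, 0.05 and 0.05 in controls 1 to 4 and 0.38, -0.53 and -0.53 in ethanol animals 1 to 3. Dbp, a clock output factor, read 4644 in ethanol 1 but 937 and 277 in ethanol 2 and 3, against 2308 to 3910 in controls. Arntl, the clock activator that peaks at the opposite time, read 15.6 in ethanol 1 and 192 and 204 in ethanol 2 and 3, against 31.1 to 143 in controls. Ethanol 1 also had the highest readings of Plin5 and Pex11a. It was the highest of the 7 animals in only 3 of the 30 genes (10%, against 15.9% of all tested genes). Angptl8, a hormone that is high after feeding, was lower in all ethanol animals (938 ± 364 against 3370 ± 704 units). Its log2 fold change was -1.81 ± 0.21, with an adjusted p of 0.0394 in limma. It was the 1 gene that passed among 16 tested genes of feeding and fasting, whose median was 0.05. Since the list joins genes of both states, that median does not describe either. That pass was not stable, since 0 probes of the array passed without the normexp step or without control 1, 3 or 4. Of the 16 genes, 5 had an unadjusted p under 0.05 (31.2%, against 9.12% of all tested genes). Elovl6 was higher, and the 4 lower genes included Fgf21, the fasting hormone. Fgf21 and Ppargc1a, both among the 4, were also counted with the further pathway genes, and Pdk4 is 1 of the 30 genes. The part of time of day or feeding in the values of the fatty acid oxidation genes was not tested.

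Markers of other liver cells also differed between animals. All 9 tested markers of Kupffer cells and macrophages were higher in ethanol livers (median 0.17, summed level 6382 to 7275 units in controls and 5972 to 9629 in ethanol animals), and 1 of 10 with a probe, Cd5l, was not above background on any array. All 8 stellate cell markers were lower (median -0.25, summed level 7974 to 9398 against 6634 to 8237). Most of that sum was Dcn, with a control mean of 6409 units. None of these markers was at background on all arrays, but only 5 of the 8 were above it on all 7. None of either list passed in limma, and 2 and 4 had an unadjusted p under 0.05 (22.2% and 50%, against 9.12% of all tested genes). Values of 3 stellate cell markers lay below all controls (37.5%, against 4.8%). Of these, Col1a2 was above background in 3 controls and 0 ethanol animals. By contrast, 0 of the Kupffer cell and macrophage markers were without overlap. The mean level of the Kupffer cell and macrophage markers was 0.43 and 0.39 in ethanol 1 and 2 but -0.10 in ethanol 3, against -0.09 to 0.08 in controls. Summed levels of the hepatocyte markers were 362944 to 434902 in controls and 420584 to 452756 in ethanol animals. Sinusoidal endothelium had 2 of 7 tested markers higher (median -0.08) and red cells 3 of 3 (0.14). Lymphocytes had 3 of 4 higher (0.12) and cholangiocytes 1 of 2 (0.06), where 49.6% of all tested genes were higher. None of these markers passed in limma. The part of any of these cell types in the values above was not tested.

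**Figure D4:**
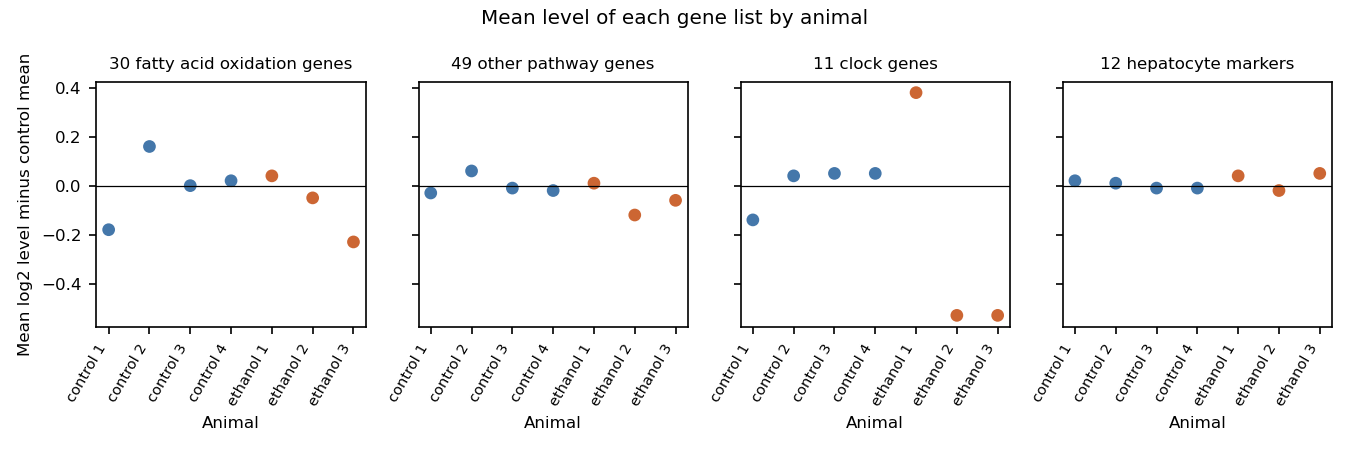
Mean log2 level of 4 gene lists in each animal (blue control, orange ethanol), relative to the control mean. The fatty acid oxidation genes run from -0.23 in ethanol 3 to 0.16 in control 2, the clock genes split ethanol 1 at 0.38 from ethanol 2 and 3 at -0.53, and the hepatocyte markers stay between -0.02 and 0.05.

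PPAR alpha binds a direct repeat of the half-site AGGTCA with 1 base between the copies. RefSeq windows of 300 bases (250 before and 50 after the start, GRCm38.p6) were found for 32 of the 36 genes, 37 windows in all, and were searched on both strands. With at most 2 mismatches over the 12 fixed bases, 5 windows (13.5%) held a match, as did 3.86% of all 32851 windows, and 1 (2.7%) had at most 1 mismatch, against 0.554%. No window held it exactly, against 0.0396% of all windows. The 5 matches are shown with 10 bases on either side, the match in capitals, read along the gene. Fabp1 has the closest match (1 mismatch, chr6:71199802-71199834, plus strand). The others, with 2 mismatches, lie at chr5:17835937-17835969 (Cd36, minus), chr10:81092778-81092810 (Creb3l3, minus), chr4:86670262-86670294 (Plin2, minus) and chr9:108662132-108662164 (Slc25a20, plus).
Fabp1: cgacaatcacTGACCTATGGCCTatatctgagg
Cd36: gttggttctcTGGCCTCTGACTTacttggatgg
Creb3l3: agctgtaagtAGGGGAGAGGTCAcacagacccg
Plin2: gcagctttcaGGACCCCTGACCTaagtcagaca
Slc25a20: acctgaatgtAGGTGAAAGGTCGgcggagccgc

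The repeat runs along the gene in Creb3l3 and Slc25a20 and on the opposite strand in Fabp1, Cd36 and Plin2. In these 5 genes the expression values were either not above background (Fabp1, Cd36) or overlapped between the groups (log2 fold change 0.05 for Creb3l3, -0.09 for Plin2 and 0.01 for Slc25a20). A match is a run of letters and not a bound site, and these windows do not reach elements farther away.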

How the data were processed

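The values used were the intensities that the authors deposited in the series table for 45281 probes on 7 arrays, on a linear scale. GenomeStudio is named in the submitters' processing notes, and its version, background option and normalization are not given in the sources used here. Values below 0 and upper quartiles of 50.1 to 51.7 on every array show that the deposited intensities had been background-subtracted and scaled. A second table has 14 columns whose names match no sample label, and it was not used.

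Intensities were corrected with normexp (offset 50), put on the log2 scale and quantile-normalized in limma 3.58.1 (R 4.3.3). Probes that exceeded the median of their array on 3 or more arrays (23829) were tested with lmFit and eBayes, two-sided, ethanol minus control, with Benjamini-Hochberg adjustment over all of them. A probe counted as above background where its intensity was over 3 times the noise of its array, the root mean square of all values below 0. The model was tested on simulated data. Probes take their gene from the platform annotation, updated by Entrez ID (34807 of 34885 probes with 1 symbol). The number of arrays limits the precision.

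The genes and lists were chosen with earlier results of these data known. Values on every array are given by a rule: genes with an unadjusted p under 0.05 or without overlap, Ppara, and otherwise the leading gene of each role. Creb3l3, Acadm, Eci2, Pex11a, Acot1 and Pdk4 were added after their values were seen. Of the further pathway genes, the 10 with the smallest p are named. Deviations of same-numbered animals from their group means correlated at -0.19, 0.09 and 0.20. With so few animals these values cannot decide whether the numbers pair them, and the main model used no pairing. Alternatives were the background step, offset, normalization, filter, variance model, choice of probe, a replicate block, and leaving out each animal.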

Additional observations from a re-analysis of the deposited data

How the results depend on the processing

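None of the 30 genes of fatty acid oxidation, and none of the 49 further pathway genes, passed in limma under any of the 15 alternatives. The median log2 fold change of the 30 genes ran from -0.13 to 0.00 in the 7 runs without 1 animal and from -0.10 to -0.01 in the 8 others, the last with all probes of a gene averaged, and that of the further pathway genes from -0.10 to -0.04. The count of probes past the threshold over the whole array, 5 as reported (2096 at an unadjusted p under 0.05), was 0 without the normexp step, 3 with an offset of 16, 8 without a filter, 0 with probes above background only, 1 with trended robust variances and 6 without normalization between arrays, and it ranged from 0 to 27 without 1 animal. With a replicate block it was 24, and no gene of fatty acid oxidation was called. Control 4 has no ethanol animal of its number, so it adds nothing to the block comparison. The block's log2 fold changes of the 30 genes equalled those without control 4 to the second decimal, so these are not separate alternatives in that respect. Not every sample correlated best with its own number.

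Of the 30 genes, 16 kept their direction in all alternatives, Ehhadh, Hadhb and Ppara among them, and 14 turned in at least 1. In those 3 genes the groups did not overlap, so leaving out 1 animal could not be expected to turn the sign. The other settings reuse the same arrays, and the count was not made over all tested genes. With all animals, Decr2 turned to 0.01 with all probes averaged, where Bdh1 also gave 0.01. Under the replicate block, to which control 4 adds nothing, Decr2 was also 0.01, the same value as without control 4. Without 1 animal, ranges that crossed 0 were -0.10 to 0.13 for Creb3l3, -0.09 to 0.10 for Slc25a20, -0.18 to 0.03 for Slc22a5, -0.08 to 0.01 for Hadha, -0.07 to 0.09 for Decr1, 0.00 to 0.14 for Etfdh, -0.14 to 0.01 for Acaa1b, -0.17 to 0.02 for Decr2, -0.34 to 0.23 for Pex11a, -0.10 to 0.03 for Acot2, -0.26 to 0.03 for Plin2, -0.06 to 0.71 for Plin5, -0.09 to 0.29 for Pdk4 and -0.28 to 0.04 for Bdh1. The cause was not tested. Signal over background limits Cpt1b and Acot2, which were above background on 4 and 3 of 7 arrays, and 5 genes that were never above it.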

Other observations

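The thioesterase genes Acot1, Acot2 and Acot3 lie close together on chromosome 12 (promoter windows starting at 84009252, 83987611 and 84051894 on the plus strand of GRCm38.p6), and their differences had both signs. Acot1 had log2 fold changes of 0.35 and 0.46 at its 2 probes above background, Acot2 -0.04 and Acot3 -0.83. Thioesterases outside the 36 genes were lower where they had an unadjusted p under 0.05, namely Acot4 (-0.40), Acot12 (-0.43) and Acot13 (-0.36), while Acot8 had 0.09. None passed in limma.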
